A study of Mus musculus with 2 samples.

Results

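Positions listed as m6A sites that fall in coding sequence of a short internal exon were examined. A member was a unique genome position and strand, in any deposited list, that lay in coding sequence of an exon of 200 nt or less that was neither the first nor the last exon. The exon was taken from the protein-coding GENCODE transcript (GRCm38) with the longest coding sequence at that position. Of 160430 listed positions, 49617 (30.9%) met this rule, and they made up 55.4% of the 89538 positions placed in coding sequence. They lay in 32206 exons of 7409 genes, and the exons had a median length of 127 nt (range 12 to 200 nt).

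Poly(A) RNA of mouse 129 embryonic stem cells was read as native RNA on nanopores (direct RNA sequencing), with 1 library of wild-type cells (WT) and 1 of Mettl3 knockout cells (KO). In the KO cells, CRISPR-Cas9 had been used to put puromycin and hygromycin resistance genes in place of exons 5 to 7 of both Mettl3 alleles, and colonies with both alleles changed were taken; WT and KO cells came from the same source. There were 17 lists from 10 tools: 7 tools (Tombo, Epinano, ELIGOS, MINES, m6Anet, Nanom6A and xPore, the last of which models libraries jointly) gave a list for each library, and 3 (DRUMMER, DiffErr and Nanocompore) gave a list of differences, called comparison lists here. The lists hold positions without scores or read numbers, the depth at each position is unknown, there are no replicates, and tests over positions compare these 2 libraries, not the conditions.

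As background, m6A is written on nascent RNA by a complex with METTL3 as its catalytic subunit, mostly at the A of RRACH sequences. Exon junction complexes, which are left on the RNA just upstream of each splice junction and are packed along short internal exons, keep the writer away from the nearby sequence. Long internal exons and last exons have stretches far from any junction, and these are where most m6A is found. A tool that lists a site from its own sequence or signal in 1 library can still name a position in a short exon, methylated or not.

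At Mettl3 itself, 7 members were listed, on the minus strand of chromosome 14. The only member within the replaced exons, at 52297553 in exon 6, was in 1 WT list, that of ELIGOS, and in 0 KO lists. Upstream of them, the 2 members in exon 4 (52298768 and 52298701) were also in WT lists and in 0 KO lists. Of the 4 members in exons 8 to 10, 3 were in a KO list and 2 in a WT list. All 9 stem cell markers examined (Pou5f1, Nanog, Sox2, Zfp42, Esrrb, Dppa5a, Tdgf1, Klf4 and Tfcp2l1) had listed positions in both libraries, with Dppa5a lowest in WT (6) and Tfcp2l1 lowest in KO (2, against 11 in WT). Of 5 fibroblast markers, Col1a2, Postn and Lum had 0 positions in either library, Thy1 had 3 in WT and 1 in KO, and Col1a1 had 0 in WT and 3 in KO.

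The lists made for each library and the comparison lists treated short internal exons very differently. WT lists held 39448 members and KO lists 36241, with 26074 in both, whereas the comparison lists held 190 members, or 0.383% of all members. In the whole series, 1.97% of positions were in a comparison list. The comparison lists held 290 of the 17594 coding positions in internal exons over 200 nt (1.65%), called long internal exons here, and 624 of the 17317 coding positions in last exons (3.60%). Of the members, 13374 (27.0%) were in a WT list and no KO list, and 10167 (20.5%) were in a KO list and no WT list. In long internal exons these shares were 37.1% and 21.2%, and in coding sequence of last exons they were 34.2% and 18.1%. The members thus had the lowest share in a WT list and no KO list of these exon kinds. Their share in a KO list and no WT list lay between those of last and long internal exons. These shares were not taken over the whole series, where WT lists held 129035 and KO lists 107577 of the 160430 listed positions. The members' share in a KO list and no WT list is thus not shown to differ from that of the series.

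Among the coding positions of each list, the share in short internal exons separated the kinds of tool. It was 9.70% for DRUMMER (95% Wilson interval 7.33% to 12.7%), 11.4% for DiffErr (9.22% to 14.1%) and 16.5% for Nanocompore (14.1% to 19.2%). Of the 281638 RRACH positions in coding sequence of the 10186 genes with a listed position, 54.6% lay in short internal exons. In WT the share ran from 25% for xPore and 32.1% for ELIGOS to 53.7% for Tombo and 61.5% for Nanom6A. In KO it ran from 44.8% for xPore to 63.2% for Nanom6A, and for each of the 7 tools it was above the share in WT. All intervals in the text cover counting error only.

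Per 1000 RRACH positions, the comparison lists named 1.23 in short internal exons and 4.33 in long internal exons. The ratio was 0.285 (95% exact binomial interval 0.236 to 0.344), and it was 0.0884 against coding sequence of last exons, where 14.0 per 1000 were listed. Each comparison tool had a ratio to long exons well under 1, at 0.168 for DRUMMER (0.116 to 0.238), 0.221 for DiffErr (0.165 to 0.293) and 0.288 for Nanocompore (0.229 to 0.360). Within 250-nt steps of distance to the 3′ end of the transcript, the pooled ratio of the comparison lists was 0.172.

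The WT and KO lists gave the opposite side. WT lists together named 256.3 per 1000 RRACH in short internal exons and 206.8 in long ones, a ratio of 1.24 (1.22 to 1.26). KO lists named 235.5 and 165.1, a ratio of 1.43 (1.40 to 1.46). Against last exons both ratios were under 1, at 0.808 for WT and 0.923 for KO. The tools differed widely in WT, with ratios to long exons of 0.446 for xPore, 0.630 for ELIGOS, 0.643 for Epinano, 0.920 for MINES, 1.14 for m6Anet, 1.15 for Tombo and 2.0 for Nanom6A. In KO all 7 ratios were above 1, from 1.05 for Epinano (0.987 to 1.12) and 1.19 for xPore (1.01 to 1.41) to 2.20 for Nanom6A.

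Genes differ in how many of their exons are short and in how often they are listed, so the ratio was also taken within genes. There were 4721 genes with RRACH positions in both exon kinds. Pooled within genes by the Mantel-Haenszel method, the WT ratio was 0.855 (0.838 to 0.871), on the other side of 1 from the plain value, and the KO ratio was 1.02 (0.999 to 1.04). The comparison lists had 0.220 (0.160 to 0.302), from 64 positions in short and 258 in long exons. Within genes, each of the 7 tools was under 1 in WT, at 0.295 for xPore (0.243 to 0.358), 0.448 for ELIGOS, 0.579 for Epinano, 0.656 for m6Anet, 0.760 for MINES, 0.836 for Tombo and 0.937 for Nanom6A (0.900 to 0.975). In KO the same ratio was 0.705 for xPore (0.566 to 0.878), 0.904 for Epinano (0.839 to 0.974), 0.988 for MINES (0.907 to 1.08), 1.01 for ELIGOS (0.811 to 1.27), 1.01 for Tombo (0.979 to 1.04), 1.03 for m6Anet (0.959 to 1.11) and 1.14 for Nanom6A (1.09 to 1.19). So within genes, short internal exons were listed less often than long ones in WT by every tool. In KO the interval included 1 for 4 of the tools (MINES, ELIGOS, Tombo and m6Anet), lay below 1 for xPore and Epinano, and lay above 1 for Nanom6A. Within genes and 500-nt steps from the 3′ end together, an alternative added after the data were seen, the ratio of the comparison lists was 0.376. In WT that of xPore was 0.506, that of ELIGOS 0.637 and that of Epinano 0.681, and in KO that of xPore was 0.883 and that of Epinano 0.994, so the KO difference of Epinano was not kept.

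Whether a WT position was missing from the KO list of the same tool was tested in short against long internal exons for 7 tools. Members were absent from the KO list less often for every tool. For xPore, 153 of 567 WT members were absent (27.0%, 95% Wilson interval 23.5% to 30.8%), against 80.7% in long internal exons and 75.1% over the whole series. The odds ratio was 0.0885 (two-sided Fisher's exact test, adjusted p = 7.46e-76 over the 7 tools). Because xPore models the libraries jointly, its WT and KO lists are not separate calls like those of the other tools. For ELIGOS, 570 of 780 were absent (73.1%), against 91.7% in long exons and 88.5% in the series, with an odds ratio of 0.247 (Fisher's exact test, adjusted p = 2.62e-18).

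For m6Anet, 2831 of 5699 WT members were absent from KO (49.7%), against 68.8% in long exons and 65.6% in the series, with an odds ratio of 0.448 (Fisher's exact test, adjusted p = 2.96e-53). MINES gave 1602 of 3484 (46.0%), against 64.8% and 59.8%, with an odds ratio of 0.462 (exact test, adjusted p = 1.40e-36). The difference was smaller for Epinano, Tombo and Nanom6A. Epinano gave 6099 of 7717 (79.0%), against 87.4% and 83.5%, with an odds ratio of 0.541 (exact test, adjusted p = 7.52e-36). Tombo gave 7039 of 22725 (31.0%), against 44.9% and 40.3%, with an odds ratio of 0.550 (exact test, adjusted p = 5.28e-115). Nanom6A gave 3079 of 11377 (27.1%), against 39.5% and 34.6%, with an odds ratio of 0.568 (exact test, adjusted p = 1.58e-33). Positions of the same exon or read are not independent, and with 1 position per gene and exon kind, an alternative added after the data were seen, the odds ratios ran up to 0.695 for Tombo (exact test, adjusted p = 1.15e-13). Some odds ratios depended on how a position was counted. With absence from the KO lists of all tools, that of ELIGOS was 0.727 (exact test, adjusted p = 8.35e-03), that of xPore 0.204 and that of m6Anet 0.680. Over GGACT positions alone, that of ELIGOS was 0.0834, that of MINES 0.288 and that of Nanom6A 0.343, all in the same direction. The odds ratios were not taken within genes.

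The number of listed members changed little between the libraries for most tools, while the number in long exons fell. xPore listed 567 members in WT and 561 in KO, a KO to WT ratio of 0.989 (0.879 to 1.11), and 554 and 205 positions in long internal exons, a ratio of 0.370 (0.314 to 0.435). Tombo listed 22725 and 23197 members, a ratio of 1.02 (1.0 to 1.04), against 0.885 in long exons. The ratio was 0.918 for MINES, 0.895 for Nanom6A and 0.878 for m6Anet, against 0.681, 0.812 and 0.587 in long exons. ELIGOS and Epinano listed far fewer members in KO, with ratios of 0.604 (0.537 to 0.678) and 0.460 (0.442 to 0.478), against 0.260 and 0.282 in long exons.

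Within the members, exons up to 50 nt were the least densely listed in WT and KO, and densities differed little between the longer ones. Per 1000 RRACH, WT lists named 224.8 in exons up to 50 nt (210.0 to 240.3), 263.2 at 51 to 100 nt (258.8 to 267.7), 256.8 at 101 to 150 nt and 252.1 at 151 to 200 nt. KO lists named 211.7, 243.9, 236.0 and 229.5. The comparison lists named 1.06 per 1000 at 51 to 100 nt (40 positions), 1.12 at 101 to 150 nt (74 positions) and 1.51 at 151 to 200 nt (71 positions). In exons up to 50 nt there were 5 such positions, or 1.72 per 1000 (0.733 to 4.01). Beyond the limit the comparison density went on upwards, to 2.67 at 201 to 300 nt, 4.16 at 301 to 400 nt, 6.99 at 401 to 600 nt and 8.47 at 601 to 1000 nt (6.74 to 10.6), and was 3.83 in exons over 1000 nt. The KO to WT ratio of m6Anet was 0.867 at 151 to 200 nt, 0.700 at 201 to 300 nt and 0.426 at 601 to 1000 nt. That of Epinano was 0.453, 0.435 and 0.185 in the same exons.

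At the limit of 200 nt the WT and KO lists were slightly sparser just outside than just inside, while the intervals of the comparison lists overlapped. Exons of 181 to 200 nt, just inside it, had 254.1 listed positions per 1000 RRACH in WT (247.2 to 261.1), 227.3 in KO (220.6 to 234.1) and 1.95 in the comparison (29 positions, 1.36 to 2.79). Exons of 201 to 220 nt, just outside it, had 230.0 in WT (222.1 to 238.1), 205.0 in KO (197.4 to 212.8) and 1.61 in the comparison (17 positions, 1.0 to 2.57).

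Near a junction, the comparison lists were sparse in short and in long exons alike. In short internal exons, the comparison density was 1.02 per 1000 RRACH within 9 nt of the nearest exon edge (27 positions), 1.13 at 10 to 24 nt, 1.38 at 25 to 49 nt, 1.22 at 50 to 74 nt and 1.73 at 75 to 99 nt (10 positions, 0.942 to 3.19). In long internal exons it was 0.602 within 9 nt (2 positions, 0.165 to 2.19), 1.72 at 10 to 24 nt (9 positions, 0.903 to 3.26), 2.12 at 25 to 49 nt (18 positions), 3.57 at 50 to 74 nt, 4.87 at 75 to 99 nt, 6.55 at 100 to 199 nt (86 positions, 5.30 to 8.08) and 5.20 at 200 nt or more (105 positions, 4.29 to 6.29). At 75 to 99 nt from an edge, the intervals of short exons (0.942 to 3.19) and of long exons (3.58 to 6.63) did not overlap.

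The ratio of KO to WT numbers was lowest far from the edges of long exons, without a steady fall for every tool. Within 9 nt of an edge, it was 0.853 in short exons and 0.793 in long exons for m6Anet, 0.448 and 0.396 for Epinano, and 1.0 and 1.03 for Tombo. At 200 nt or more from both edges of a long exon it was 0.425 for m6Anet, 0.191 for Epinano and 0.767 for Tombo. For ELIGOS it was 0.286 within 9 nt, 0.806 at 25 to 49 nt, 0.285 at 100 to 199 nt and 0.115 at 200 nt or more, and for xPore it was 0.7 within 9 nt, 0.957 at 10 to 24 nt and 0.230 at 200 nt or more. Within short exons the WT and KO lists were denser at the downstream edge, and the comparison lists showed no clear difference. The comparison density within 9 nt was 0.969 at the upstream edge (14 positions, 0.577 to 1.63) and 1.07 at the downstream edge (13 positions, 0.626 to 1.83). WT lists named 246.9 per 1000 within 9 nt of the upstream edge (239.9 to 254.0) and 273.8 within 9 nt of the downstream edge (265.9 to 281.8). KO lists named 226.0 (219.3 to 232.9) and 250.3 (242.7 to 258.1).

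In short internal exons the pooled lists were denser toward the 3′ end, where reads of native RNA start. WT lists named 430.3 per 1000 RRACH within 499 nt of the transcript end and 117.0 at 4000 nt or more. KO lists named 386.0 and 107.9. The comparison lists named 8.97 within 499 nt (62 positions), 3.34 at 500 to 999 nt, 1.18 at 1000 to 1999 nt, 0.281 at 2000 to 3999 nt and 0.0888 at 4000 nt or more (3 positions). In penultimate exons the comparison lists named 3.17 per 1000 (50 positions), and more than 10 exons before the last they named 0.100 (5 positions). Without the genes of cytosolic ribosomal proteins, the comparison density was 1.2 within 499 nt of the end (8 positions) and 1.16 at 500 to 999 nt. Long internal exons were also less densely listed far from the end. WT lists named 356.6 per 1000 there within 499 nt and 94.0 at 4000 nt or more, and KO lists 293.9 and 71.5. Coverage is unknown, and its part in these densities was not tested.

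The sequence around the base set the members apart from long exons. GGACT, the sequence most often methylated, made up 7.14% of RRACH positions in short internal exons and 7.40% in long ones. In WT lists it made up 9.53% of members (95% Wilson interval 9.25% to 9.83%) and 13.3% of positions in long exons (12.8% to 13.9%). In KO lists it made up 9.19% of members and 9.96% in long exons. The contrast was sharpest for xPore, with GGACT at 10 of 567 WT members (1.76%, 0.961% to 3.22%) and 183 of 554 in long exons (33.0%, 29.2% to 37.1%). For ELIGOS it was 5.90% against 26.3%, for Epinano 10% against 19.1%, for MINES 9.19% against 17.1%, for Tombo 11.1% against 17% and for Nanom6A 8.86% against 14.9%. For m6Anet it was 20.7% (19.7% to 21.8%) against 22.8% (21.1% to 24.6%).

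Members that a tool listed only in WT were somewhat richer in GGACT than those it listed in both libraries for Tombo (14.2% against 9.77%), MINES (12.3% against 6.54%), Epinano (10.9% against 6.80%) and Nanom6A (10.4% against 8.30%). In long internal exons the same shares were 23.4% against 11.8% for Tombo, 22.4% against 7.41% for MINES, 20.2% against 11.4% for Epinano and 21.6% against 10.5% for Nanom6A. For m6Anet the order was turned in short exons (18.5% against 22.9%) and in long exons (20.3% against 28.1%). ELIGOS members had 5.61% against 6.67%, with intervals that overlapped (4.0% to 7.82% and 4.01% to 10.9%), while in long exons ELIGOS had 27.7% against 11.1%. For xPore GGACT made up 4.58% of WT-only members (2.23% to 9.14%) and 0.725% of those in both libraries, and in long exons 39.4% and 6.54%.

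For the comparison lists, the gap between exon kinds was widest in 5 of the 6 5-mers with a G in front of the AC. The short to long ratio was 0.171 for GGACT (31 members, 0.109 to 0.261), 0.167 for AGACT, 0.181 for GGACA, 0.219 for GGACC and 0.381 for AGACA. For AGACC it was 0.780, with an interval that included 1 (0.257 to 2.61). It was 2.47 for GAACA (19 members and 3 positions in long exons, 0.728 to 13.0), 1.63 for GAACC (0.513 to 6.82) and 0.515 for GAACT (0.209 to 1.31), with intervals that included 1. Outside ribosomal protein genes, the ratio of RAACH, with A in front of the AC, was 0.380 (19 members, 0.193 to 0.742) and that of RGACH was 0.112 (0.0841 to 0.148), a split made after the data were seen. In WT lists the ratio was 0.917 for GGACT (0.868 to 0.971) and 0.923 for AGACT, and in KO lists it was 1.36 and 1.40. For AAACA, which is rarely methylated, it was 1.68 in WT and 1.65 in KO.

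The members of the comparison lists were concentrated in genes of the ribosome. Genes of cytosolic ribosomal proteins held 107 of the 190 (56.3%), in 53 of the 80 genes of this list that had RRACH in short internal exons. Their comparison density was 236.2 per 1000 RRACH (199.4 to 277.4), against 1.23 over all genes. In their long internal exons it was 292.7 (12 of 41 RRACH), a short to long ratio of 0.807 with an interval that included 1 (0.443 to 1.61). In these genes nearly every RRACH was listed in any case, at 973.5 per 1000 in WT and 958.1 in KO, and 435 of their 442 WT members were also in a KO list. Without these genes, 83 members and 278 positions in long exons were left, at 0.541 and 4.15 per 1000 RRACH. The ratio was then 0.13 (0.101 to 0.167), under the value of 0.285 over all genes. This alternative was added after the data were seen.

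The ribosomal protein genes held most of the comparison members in the last 1000 nt and most of those with RAACH. Without them, the comparison density of short exons was 1.2 per 1000 within 499 nt of the end (8 positions, 0.607 to 2.36), 1.16 at 500 to 999 nt (0.758 to 1.77), 0.894 at 1000 to 1999 nt (0.649 to 1.23), 0.262 at 2000 to 3999 nt and 0.0888 at 4000 nt or more, so a rise toward the 3′ end was left. Long exons had 8.38 (8 positions, 4.25 to 16.4), 8.58 and 9.09 at the 3 nearest distances. They fell to 3.53 at 2000 to 3999 nt and 0.744 at 4000 nt or more, so low densities far from the end were shared by both exon kinds. The RAACH sequences made up 50 of the 107 comparison members in ribosomal protein genes (46.7%, 37.6% to 56.1%), close to their 48.8% of RRACH there. Among the other 83 members they made up 22.9% (15.2% to 33.0%), and in long exons of the same genes 7.55% (4.99% to 11.3%). GGACT was 7.48% of the ribosomal members, 27.7% of the other members and 29.1% of the positions in long exons outside ribosomal protein genes.

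Among the genes with most comparison members, Eef1a1, which brings aminoacyl-tRNA to the ribosome, came first with 9 of its 9 RRACH positions in short internal exons. Next were the 60S proteins Rpl3 with 8 of 16, Rpl4 with 6 of 15 and Rpl17 with 6 of 11. The glycolytic enzyme Pkm had 4 of 20, the nucleolar chaperone Npm1 4 of 15, the translocation factor Eef2 4 of 13, and Rpl27a, Rps3 and Rpl13 had 4 of 9, 9 and 6. Rps2 and Rps21 also had 4 each but fewer members in WT lists, by which ties were broken. These 10 genes held 53 of the 190. All members in 9 of the 10 genes were in both a WT and a KO list, and in Rpl17 10 of 11 were in WT and 9 in KO. Many of these genes have processed pseudogenes with near-identical sequence, and whether any of the reads came from them was not tested.

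No member was in all 3 comparison lists and in no KO list. The 13 members in all 3 comparison lists were all in a KO list too, and they are described here after their values were seen. They lay in 13 genes, 7 of them of ribosomal proteins, and their median exon length was 168 nt, against 135 nt for the 190 comparison members. Of the 13, 12 had 1 of the 4 5-mers that MINES can list. These 5-mers made up 51.6% of the 190 and 34.0% of RRACH positions in short internal exons. Among the comparison positions in long internal exons they made up 83.8%. DiffErr and DRUMMER shared 36 members, 48.0% of DiffErr and 80.0% of DRUMMER. Nanocompore shared fewer, 26 with DiffErr (19.7% of Nanocompore and 34.7% of DiffErr) and 13 with DRUMMER (9.85% of Nanocompore and 28.9% of DRUMMER). Of the 190, 141 were in 1 comparison list only. The same overlaps were not taken outside short internal exons, so these counts do not set the members apart from other positions.

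The members named by at least 7 tools, those in Eef1d, Klf3, Ppp1r2 and Rps6, show what such positions look like. Those in Hsp90aa1 and Rpl5 are added as examples from the 10 members named by 6 tools. Eef1d encodes a subunit of the exchange factor for Eef1a. Its member at position 75895893 of chromosome 15, minus strand, lies in exon 9 of 10 (75895732 to 75895926, 195 nt) of ENSMUST00000089681.11, 33 nt from the upstream edge. It was in all 3 comparison lists, in WT lists of Tombo, MINES, Nanom6A, m6Anet and Epinano, and in KO lists of Tombo, Nanom6A and xPore. Klf3 encodes a transcriptional repressor of the Krüppel-like family. Its member at position 64822956 of chromosome 5, plus strand, lies in exon 4 of 6 (151 nt), 73 nt from the downstream edge. It was in the Nanocompore and DiffErr lists, in all WT lists but that of MINES, and in KO lists of Tombo, Nanom6A, m6Anet and Epinano.

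Ppp1r2 encodes an inhibitor of protein phosphatase 1. Its member at position 31258455 of chromosome 16, minus strand, in exon 5 of 6 (168 nt), was in all 3 comparison lists, in WT lists of Tombo, Nanom6A, m6Anet and Epinano, and in KO lists of Nanom6A and m6Anet. In Rps6, a 40S protein, the member at position 86855994 of chromosome 4, minus strand, exon 4 of 5 (147 nt), was in 2 comparison lists, 5 WT lists and 3 KO lists. In the chaperone gene Hsp90aa1, the member at position 110693859 of chromosome 12, minus strand, exon 6 of 11 (166 nt), was in 3 comparison lists, 3 WT lists and 3 KO lists. In Rpl5 the member at position 107903325 of chromosome 5, plus strand, exon 4 of 8 (135 nt), was in 3 comparison lists, 3 WT lists and 2 KO lists, and its 5-mer was GAACT. In at least 1 other annotated transcript, each of these 6 positions lay in a last exon. The spliced GENCODE sequence around these 6 members, on the RNA strand in DNA letters and with the 5-mer in capitals, shows the range from GGACT to GAACT.
Eef1d: gcccagctagAGACTtgtgtgcgtt
Klf3: gaaccacagaGGACTgactattacc
Ppp1r2: ttacaatgaaGGACTcaatattaag
Rps6: ggatattcctGGACTgacagacact
Hsp90aa1: ttctgttgaaGGACAattagaattc
Rpl5: atatgcacatGAACTtccaaaatat

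The other members in all 3 comparison lists had at most 3 WT lists. Rps2 (position 24720720 of chromosome 17) was in 3 WT lists. Rpl6 (121207172 of chromosome 5), Eef1a1 (78480275 of chromosome 9), Eef2 (81178223 of chromosome 10), Rpl23a (78181528 of chromosome 11) and Rpl38 (114668931 of chromosome 11) were in 2 each. Rpl27a (109520562 of chromosome 7), Rps25 (44409955 of chromosome 9) and Pkm (59665313 of chromosome 9) were in 1, that of Nanom6A. Each was also in 1 or 2 KO lists.

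Members in a comparison list and in no KO list numbered 6 of 190, and they were named after their values were seen. Rcn2, a calcium-binding protein of the endoplasmic reticulum, had a GGACT at position 56042657 of chromosome 9 in the Nanocompore list and in WT lists of Tombo, Nanom6A and m6Anet. Pfdn5, a prefoldin subunit, had a GGACT at position 102326503 of chromosome 15 in the Nanocompore list and in WT lists of Nanom6A and m6Anet. Rpl30 (34442702 of chromosome 15) was in the Nanocompore list and in WT lists of Tombo and MINES, and Cox6a1 (115348607 of chromosome 5), of cytochrome c oxidase, in the Nanocompore list and the WT list of Nanom6A. Psma3 (70984533 of chromosome 12), of the proteasome core, and a position in Rpl17 were in 1 comparison list and 0 WT lists. In long internal exons, 75% of the Nanocompore positions, 68.9% of DiffErr and 68.4% of DRUMMER were in a KO list of any tool, against 96.2%, 98.7% and 100% of the members.
Rcn2: aaattgactcGGACTctgatggctt
Pfdn5: tggaagccaaGGACTgtctgaacgt

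An exon that is short and internal in 1 transcript can be a last or long exon in another. Over protein-coding transcripts alone, 91.6% of members lay in a short internal exon in every transcript that contains the position (91.4% to 91.9%), and 83.2% of those in a comparison list did (77.2% to 87.8%). Over all annotated transcripts, which include retained introns and shortened forms, these shares were 61.7% and 25.8% (20.1% to 32.4%). At least 1 annotated transcript put the position in a last, a long internal or a single exon for 27.4% of all members and for 57.4% of those in a comparison list (50.3% to 64.2%). Yet the transcript that the comparison tools named gave a short internal exon for 189 of the 190. Which transcript the reads came from was not tested.

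Support by several tools was rare among members. Of 39450 members in a WT or comparison list, 28996 (73.5%) were named by 1 tool, 377 (0.956%) by at least 4 of the 10 tools and 14 by at least 6. In long internal exons 65.8% were named by 1 tool, 649 of 13861 (4.68%) by at least 4 and 217 by at least 6. The highest support was 8 tools in short exons and 10 in long exons. More support went with more listing in KO among members, from 59.3% in a KO list with 1 tool to 96.6% with at least 4. In long exons these shares were 47.5% and 70.0%.

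The members in most KO lists were in 5, and there were 12 of them. The first 5, by number of WT lists and then genomic order, lay in Caprin1 (103773779 of chromosome 2), an RNA-binding protein of stress granules, Rplp0 (115561173 of chromosome 5), Lig1 (13303239 of chromosome 7), the replicative DNA ligase, Ldha (46854069 of chromosome 7), lactate dehydrogenase, and Asah1 (41346348 of chromosome 8), acid ceramidase. Each was in 5 WT lists and 0 comparison lists. For all but Lig1 the same 5 tools named the position in both libraries. The Lig1 position was named by ELIGOS in WT only and by Epinano in KO only. Their sequences, with the 5-mer in capitals, include GGACT and GAACC.
Caprin1: ttctgaatctAGACTtgcccaatct
Lig1: ctgtggcctgGGACCgggaaaagaa
Ldha: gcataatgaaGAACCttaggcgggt
Asah1: attcaaaccaGGACTgttcagtctt

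The xPore members with GGACT that were absent from the xPore KO list were few, 7 of 153, and were named after their values were seen. They lay in Ppp2r5a (191372591 of chromosome 1), a regulatory subunit of phosphatase 2A, Nop56 (130277512 of chromosome 2), a snoRNP core protein, Klf3, Cenpn (116934759 of chromosome 8), a centromere protein, Aurkb (69048636 of chromosome 11), a mitotic kinase, March2 (33692031 of chromosome 17), a ubiquitin ligase, and Cul4b (38546820 of chromosome X), a cullin. All 7 were in WT lists of Tombo, Nanom6A and m6Anet as well. The Cul4b position was in 0 KO lists, and the March2 position was in 6 WT lists and in the KO list of m6Anet alone. Of the 414 xPore members in both libraries, 3 were GGACT.
March2: gctggctactGGACTcttaaaaaag
Cul4b: aagaattattGGACTttaaagataa

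Per gene, the number of members had a median of 5, and 315 genes had at least 20. The genes with most members encode large proteins with many short exons. Usp34, a deubiquitinase, had 59 members in 40 exons, Top2a, the mitotic topoisomerase, 56 in 25, Trip12, a ubiquitin ligase, 51 in 25, Myof, a membrane-repair ferlin, 50 in 31, and Ckap5, a microtubule polymerase, 50 in 26. In Top2a and Trip12, 83.6% and 79.7% of the RRACH positions in short internal exons were listed, with 44 and 43 members in both libraries. In Usp34 25 members were only in WT lists and 7 only in KO lists, and in Ckap5 5 were only in WT and 24 only in KO. Of these 5 genes, Top2a had 1 member in a comparison list and the others 0.

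Some genes had all their members in 1 library. After Ckap5, the genes with most members only in KO lists were Megf11, an EGF-domain receptor, with 21, Cast, the calpain inhibitor, with 19, Nav1, a microtubule-associated neuron navigator, with 18, and Myof with 17. Eif2ak4, named below, tied with Myof at 17. Megf11 and Nav1 had 0 listed positions in WT anywhere in their exons, against 27 and 25 in KO. Among the 3965 genes with at least 5 members, 117 had all members only in KO lists and 134 only in WT lists. The next such genes, taken after their values were seen, were Eif2ak4, an eIF2 kinase, with 17, Pkn3 with 14 and Dnmt3b, a de novo DNA methyltransferase, with 13 in KO. In WT they were Bcas3 with 19, A2m with 18 and Cyfip2 and Itpr1 with 16 each. Transcript levels were not measured here, and their part in these counts was not tested.

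The exon junction complex genes had 25 members and 0 in a comparison list, too few members to place this group against the 0.383% of all members. Rbm8a, which encodes the Y14 subunit, had members at all 8 of its RRACH positions in short internal exons, each in both libraries. Eif4a3, the RNA-clamping helicase, had 9 members, 5 in both libraries and 4 only in WT. The 4 lay in exons 5 and 6, and each was named by Nanom6A alone. Casc3 had 5 members, 3 of them only in WT and 1 only in KO. The paralogs Magoh and Magohb each had a GAACA in exon 4 of 5 (83 nt), 26 nt from the upstream edge. It was named by Tombo, Nanom6A and m6Anet for Magoh and by Tombo for Magohb, in WT and in KO alike. The sequences around this position in the 2 genes are similar, and whether reads were exchanged between the genes was not tested.
Magoh: cattggagatGAACAcatttctttc
Magohb: aattggggatGAACAcatttctttt

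Other gene groups with many short exons were densely listed in both libraries, and each had at most 4 members in a comparison list. Over all genes the comparison lists named 1.23 per 1000 RRACH (1.07 to 1.42). The CCT chaperonin folds actin and tubulin, and its Cct6a gene was not found under that symbol among the genes used here. The other 7 genes had 143 members at 147 RRACH positions, 138 of them in both libraries, and 3 in a comparison list (20.4 per 1000, 6.96 to 58.3), 2 of them in Cct4. Mcm2-7, the replicative helicase, had 140 members at 165 RRACH positions and 1 in a comparison list (6.06 per 1000, 1.07 to 33.5). Proteasome subunits had 379 members in 34 genes, listed at 772.6 per 1000 RRACH in WT and 690.5 in KO, with 1 in a comparison list (2.11 per 1000, 0.372 to 11.8). Cytosolic aminoacyl-tRNA synthetases had 385 members in 20 genes, at 581.0 and 527.5 per 1000, with 0 in a comparison list (upper limit 6.37 per 1000). Over all genes WT lists named 256.3 per 1000 and KO lists 235.5.

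Genes with an Eif symbol, which include translation initiation factors but also eIF2 kinases, repressors and Eif4a3, had 570 members in 51 genes with 4 in a comparison list (4.09 per 1000, 1.59 to 10.5), and hnRNP genes 190 members in 17 genes with 3 (10.8 per 1000, 3.68 to 31.2). Of these, 3 of the 4 lay in Eif2s2, a subunit of eIF2, and 2 of the 3 in Hnrnpab, so both values rest on few genes. SR splicing factors had 38 members in 8 genes with 0. DEAD and DEAH box helicases had 465 members in 44 genes with 1 (0.846 per 1000, 0.149 to 4.78), and were the least densely listed group, at 325.7 per 1000 in WT and 283.4 in KO. The share of WT members in no KO list was 33.9% over all genes. It was 1.58% in ribosomal protein genes, 3.50% in the CCT chaperonin, 12.9% in Mcm2-7, 13.4% in hnRNP genes, 13.6% in the proteasome, 14.3% in Eif genes, 18.8% in SR factors, 19.8% in the synthetases, 29.2% in the exon junction complex and 33.8% in the DEAD and DEAH box helicases. The groups most densely listed in WT, ribosomal protein genes (973.5 per 1000) and the CCT chaperonin (972.8), had the smallest shares. The least densely listed, the DEAD and DEAH box helicases, had the largest. Between these ends the orders differed. The exon junction complex, at 648.6 per 1000, and the synthetases, at 581.0, had larger shares than the less densely listed Eif genes, at 528.1. A relation between density and share was not tested.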

How the data were processed

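The authors basecalled and aligned the reads to a GENCODE mouse transcriptome (mm10, GRCm38), ran each tool and deposited lists of genome positions. For their own analysis they took the cut-off of each tool with the best summed F1 against miCLIP sets, but the deposited lists may carry other cut-offs, which are not stated with them. The deposited lists hold positions, with no score, count or coverage. Positions were placed here with GENCODE M21, and 2000 positions placed again by a separate search gave 0 differences. Of 322309 lines with a transcript position, 96.7% had it at the listed base and 10495 did not. Nanom6A lists name genes, and the other lists name transcripts. RRACH positions (12 5-mers) in coding sequence of genes with at least 1 listed position were the background of densities, per 1000. Rate ratios have exact binomial intervals, shares have Wilson intervals, and ratios within genes have Greenland-Robins intervals, all at 95%. Fisher's exact tests, two-sided, had Benjamini-Hochberg adjustment over 7 tools (threshold 0.05). The scripts were tested on simulated data with known ratios. Alternatives changed exon limits, transcripts, background, matching of positions and strata.

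The rule for named positions was the first 10 in all 3 comparison lists and no KO list, which gave 0, and the 5 in most KO lists. Those in all 3 comparison lists, in at least 7 tools, in a comparison list without a KO list, and the WT-only GGACT of xPore were added after their values were seen. The genes named were the 10 with most comparison members (ties by members in WT lists), the 5 with most members, the 5 with most members only in KO (Myof tied with Eif2ak4 for the last place), Mettl3 and the exon junction complex genes. Members and lists were chosen with earlier results of these data known. Python 3.11.15 was used with numpy 2.4.6, pandas 2.3.3 and scipy 1.17.1.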

Additional observations from a re-analysis of the deposited data

How the results depend on the processing

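The odds ratios for absence from the KO list kept their direction and passed the threshold in all 49 combinations of 7 tools and 7 alternatives, from 0.0834 to 0.727. None of the 7 alternatives was taken within genes or within steps from the 3′ end, so differences between genes in absence from KO lists were not accounted for. The number of members stayed between 34663 and 55486 under 6 alternatives. The density ratios moved more. In WT lists the ratio was turned against last exons (0.808), within genes (0.855), and within genes and 500-nt steps from the 3′ end together (0.907). It was 1.06 within steps from the 3′ end, 1.07 with long exons of 1000 nt or less, 1.13 without Nanom6A, 1.16 without Tombo, 1.29 with a limit of 250 nt and 1.39 over exons with a listed position. In KO lists the ratio was turned against last exons (0.923). It was 1.02 within genes and 1.02 within genes and steps together, 1.21 within steps from the 3′ end, 1.22 with long exons of 1000 nt or less, 1.33 without Nanom6A, 1.46 with short exons of 100 nt or less, 1.56 with a limit of 250 nt, 1.58 without Tombo and 1.59 over exons with a listed position. In comparison lists it was 0.0884 against last exons, 0.13 without ribosomal protein genes, 0.172 within steps from the 3′ end, 0.220 within genes and 0.376 within genes and steps together. The cause was not tested. Genes with steps, the 1000-nt bound, the ribosomal genes and 1 position per gene were chosen after seeing the data. Without coverage, an unlisted position cannot be told from one with too few reads.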
